A study of Rattus norvegicus with 6 samples.

Results

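The alpha, mu and pi glutathione transferases are 3 classes of cytosolic enzymes, and 10 of their rat genes are described here in the renal cortex. The members are Gsta1, Gsta3 and Gsta4 of the alpha class, Gstm1, Gstm2, Gstm3, Gstm4, Gstm5 and Gstm7 of the mu class, and Gstp1 of the pi class. They were found through the accession of each array probe, which gave 17 of the 61453 probes analysed and 10 of the 15645 named genes. Tissue came from male Sprague-Dawley (Crl:CD(SD)) rats, an outbred stock, bought at 5 weeks of age. The dosed group, 3 rats, received 1,2-dibromoethane at 75 mg/kg/day over 4 weeks, and the control group, also 3 rats, received corn oil for the same time. Cy3-labelled cRNA of each rat went on 1 Agilent array, so an array stands for 1 animal. The route of dosing and the age at sampling are not given in the sources used here.

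Glutathione transferases join the tripeptide glutathione to electrophilic compounds, which are then carried out of the cell or trimmed to mercapturates, a step for which the kidney is a main site. The proximal tubule of the cortex carries out much of this work. 1,2-Dibromoethane, a halogenated solvent and former fumigant, is conjugated by these enzymes, and its glutathione conjugate can itself react with DNA. Alpha class enzymes also reduce lipid hydroperoxides, mu class enzymes act on epoxides and quinones, and Gstp1 is widely used in rats as a marker of altered liver foci. Many of these genes are targets of NRF2, a transcription factor that binds antioxidant response elements.

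Older gene lists use some of these symbols for other genes. In the RefSeq names used here, Gsta1 and Gsta3 lie near Gsta6 on one chromosome, and Gsta4 lies near Gsta2 and Gsta5 on another. The windows around the transcription start of Gsta1 and Gsta3 are shown because these neighbours were the alpha genes whose groups did not overlap. Each window runs 300 bases 5′ to 3′ in the gene's own orientation, from 250 bases before to 50 after the start, from RefSeq on build GRCr8. Gsta1 is at chr9:31216483-31216782 on the minus strand and Gsta3 at chr9:31154739-31155038 on the plus strand. Capitals mark runs of at least 12 bases that are identical in the alignment of the 2 windows.
Gsta1: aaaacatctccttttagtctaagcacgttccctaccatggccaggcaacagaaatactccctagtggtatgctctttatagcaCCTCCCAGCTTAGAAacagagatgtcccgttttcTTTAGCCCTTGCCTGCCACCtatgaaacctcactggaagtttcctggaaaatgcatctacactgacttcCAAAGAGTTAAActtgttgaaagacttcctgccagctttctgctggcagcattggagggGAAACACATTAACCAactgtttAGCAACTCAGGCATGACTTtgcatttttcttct
Gsta3: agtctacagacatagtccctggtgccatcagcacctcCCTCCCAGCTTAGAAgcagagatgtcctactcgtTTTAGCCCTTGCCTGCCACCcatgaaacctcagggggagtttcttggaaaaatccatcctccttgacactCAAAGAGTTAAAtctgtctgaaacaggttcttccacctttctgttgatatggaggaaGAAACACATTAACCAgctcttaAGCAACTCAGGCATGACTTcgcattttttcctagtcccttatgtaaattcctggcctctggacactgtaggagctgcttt
The windows were identical at 66.7% of positions, with 5 such runs and 81 bases in them, the longest of 20 bases. Among the other 44 pairs of member windows the identity ran between 35% and 61%.

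The window of Gstp1 is shown because it holds the overlap of 2 motifs tied to the response to electrophiles. It is at chr1:210769656-210769955 on the minus strand of GRCr8, and capitals mark the match to TGACNNNGC, the core of the antioxidant response element, 61 bases before the start.
Gstp1: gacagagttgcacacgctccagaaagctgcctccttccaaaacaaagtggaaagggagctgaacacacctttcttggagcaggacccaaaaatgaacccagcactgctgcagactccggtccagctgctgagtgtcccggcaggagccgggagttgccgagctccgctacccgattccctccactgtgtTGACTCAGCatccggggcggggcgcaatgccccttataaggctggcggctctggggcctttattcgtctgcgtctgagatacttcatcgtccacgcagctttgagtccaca
The first 7 letters of that match, TGACTCA, are also an AP-1 site. On both strands, TGACNNNGC was found in windows of 5 of the 10 members (Gsta1, Gsta3, Gstm5, Gstm7 and Gstp1) and in 12.1% of 33469 rat windows of this length. TGACTCA was found in windows of 2 members, Gstm5 and Gstp1, and in 4.63% of all windows. A match is a string of letters and not a measured site.

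The comparison asks which of these transcripts differed in renal cortex between rats dosed with 1,2-dibromoethane and rats given corn oil. Levels are log2 of the background-subtracted signal minus the 75th percentile of the array, so that 0 is the level of a fairly bright probe and a difference of 1 is 2-fold. Levels of different probes are not compared with each other. Where a gene had more than 1 probe, the brightest stood for it, and limma was fitted to all 28961 features that were well above background on every array of at least 1 group. In limma 0 of the 10 member genes passed an adjusted p of 0.05, where 0.0311% of all features did. At an unadjusted p under 0.05, 2 members passed, Gsta3 and Gstm3, both higher in dosed rats, where 4.53% of features passed on that side. On the lower side 0 members passed, where 6.64% of features did. Gstm3 was tested only because its dosed arrays were well above background, so of these only Gsta3 was measured in both groups. The count of 2 was 5 without dosed rat 1 and 1 without any other single rat. Over all features, both sides together, it was 3237 of 28961 with all rats and 2610 of 28986 without dosed rat 1. Without any other single rat it was 2076 to 3343 features. In bulk tissue, fewer cells of a type and less RNA per cell cannot be told apart. The smallest adjusted p among members was 0.251, for Gstm3.

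By sign, 8 of the 10 members had a positive log2 difference, dibromoethane minus control, as did 46.5% of all features. The median difference was 0.24 for the members and -0.02 over all features. In Gsta1, Gsta3, Gstm2 and Gstm3 every dosed rat lay above every control rat, which held for 7.37% of features. In 0 members did every dosed rat lie below every control rat, which held for 12.1% of features. Gstm3 entered the fit only through the dosed rats, whose arrays had to be well above background for it to be tested. The filter thus favoured a higher value in that group. Of the 9 members well above background on all arrays, 3 did not overlap. The members were chosen with earlier results of these data known, so these counts describe the 10 genes and support nothing beyond them.

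**Figure D1:**
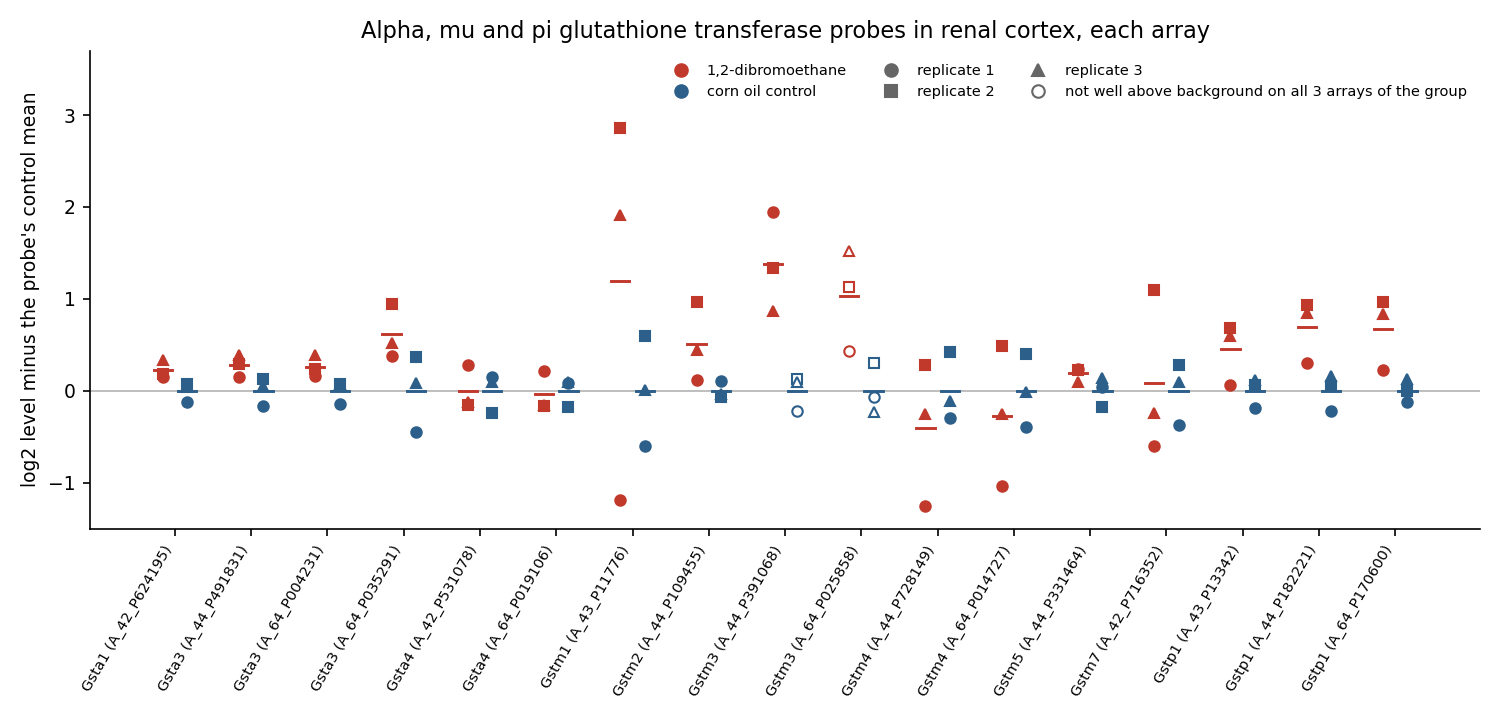
Each of the 17 member probes is plotted by array as its log2 level minus the mean of the 3 control rats for that probe, with dosed rats left of control rats and bars at the group means. The dosed rats of Gstm1 spread over 4.04 log2 units, while those of Gsta1 lie within 0.19.

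Among the alpha genes, Gsta1 and Gsta3 stood slightly higher in dosed rats and Gsta4 did not differ beyond its spread. Gsta1 encodes the alpha subunit with the older name Yc1. Its log2 level was 7.88, 7.91 and 8.07 in dosed rats 1 to 3, against 7.61, 7.81 and 7.78 in control rats 1 to 3. The groups did not overlap, but the gap between the lowest dosed and the highest control rat was small beside either group's own range. The log2 difference was 0.22 (SE 0.09, 95% interval -0.004 to 0.445, limma adjusted p = 0.451), a fold of 1.17.

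Gsta3 encodes the subunit with the older name Yc2, known in rats for conjugating the epoxide of aflatoxin. The brightest of its 3 probes gave 6.52, 6.59 and 6.75 in dosed rats, against 6.21, 6.43 and 6.43 in control rats. Its difference was 0.26 log2 units (SE 0.10, 95% interval 0.01 to 0.51, limma adjusted p = 0.430). The other probes gave differences of 0.28 and 0.61, and for all 3 probes the dosed rats lay above the control rats. The probe with 0.61 was the dimmest of the 3, and its dosed rats stood at 1.50, 2.07 and 1.64, against 0.67, 1.49 and 1.21 in control rats.

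Gsta4 encodes an enzyme that clears 4-hydroxynonenal, a product of lipid peroxidation. Its brighter probe read 6.76, 6.37 and 6.39 in dosed rats and 6.63, 6.36 and 6.64 in control rats. Between groups it differed by -0.03 log2 units (SE 0.14, 95% interval -0.38 to 0.31, limma adjusted p = 0.945), and the second probe gave 0.00. The interval allows a change of either sign.

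The order of the animals was read for each set of neighbouring genes, with the values already in view. Over the 5 probes of Gsta1, Gsta3 and their neighbour Gsta6, control rat 1 was the lowest of the 6 rats in 5 probes and dosed rat 3 the highest in 4. Over the 5 probes of Gsta4, Gsta2 and Gsta5, control rat 2 was the lowest in 5 probes, and dosed rat 1 the highest in 3 (control rat 1 in the other two). Gsta6, which is not among the members, had a log2 difference of 0.33 (SE 0.16), and the values were -0.02 (SE 0.13) for Gsta2 and -0.04 (SE 0.12) for Gsta5. Probes of such similar genes may bind each other's transcripts; probe sequences were not used here, and cross-binding was not tested.

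**Figure D2:**
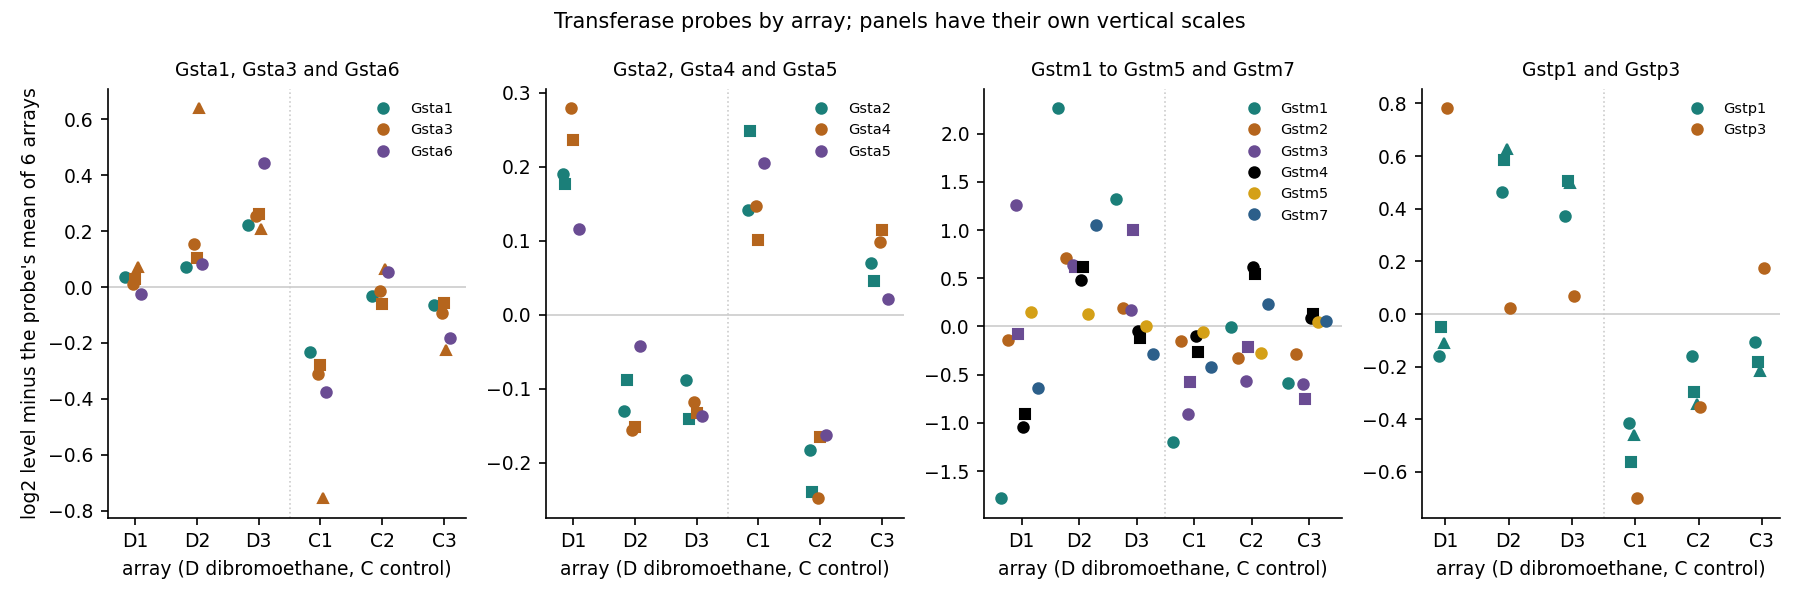
Transferase probes are plotted by array as log2 level minus the probe's mean over 6 arrays, with dosed rats D1 to D3 left of control rats C1 to C3, colours for genes and marker shapes for the probes of a gene. In the first panel C1 is lowest for all 5 probes, in the second C2 is lowest for all 5, and in the third D1 is lowest for 4 of 7 tested probes.

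Among the mu genes, Gstm1, Gstm4 and Gstm7 varied more between animals of a group than between groups, while Gstm2 stood higher in every dosed rat. Gstm3 was well above background in dosed rats only and was tested through them. Gstm1, the main mu subunit of rat liver, had the widest spread of all members. Its log2 level was 0.54, 4.59 and 3.65 in dosed rats 1 to 3, against 1.13, 2.32 and 1.74 in control rats 1 to 3. Dosed rats 2 and 3 lay above all control rats, and dosed rat 1 lay below them all.

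The dosed rats thus differed 16.5-fold among themselves in Gstm1 signal and the control rats 2.29-fold. The log2 difference was 1.20 (SE 1.03, 95% interval -1.33 to 3.72, limma adjusted p = 0.685). Without dosed rat 1 it was 2.39, and without dosed rat 2 it was 0.37. The SD between arrays within groups was 1.55 log2 units, higher than in 99.8% of features tested.

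Gstm4 and Gstm7, further mu class genes of the same neighbourhood, shared the low reading of dosed rat 1. Gstm4 read -0.59, 0.94 and 0.41 in dosed rats, against 0.36, 1.08 and 0.55 in control rats. Its log2 difference was -0.40 (SE 0.41, limma adjusted p = 0.733), its second probe gave -0.27, and without dosed rat 1 the value was 0.02. Gstm7 read -0.80, 0.89 and -0.45 in dosed rats, against -0.58, 0.07 and -0.10 in control rats.

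Both groups of Gstm7 overlapped, with dosed rat 2 the highest and dosed rat 1 the lowest of the 6 rats. The log2 difference was 0.08 (SE 0.45, limma adjusted p = 0.959), with -0.42 without dosed rat 2 and -0.10 without control rat 1. The SD within groups was higher than in 96.1% of features for Gstm4 and in 97.0% for Gstm7. Over the 7 tested mu probes, dosed rat 2 was the highest of the dosed rats in 5 and dosed rat 1 the lowest in 5.

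Gstm2 encodes a second abundant mu subunit. It read 0.50, 1.35 and 0.82 in dosed rats, against 0.48, 0.31 and 0.35 in control rats. The groups did not overlap, although dosed rat 1 lay only just above control rat 1. Its log2 difference was 0.51 (SE 0.22, 95% interval -0.02 to 1.04, limma adjusted p = 0.456), and it was 0.28 without dosed rat 2. Gstm5, of the same class, read -2.62, -2.63 and -2.76 in dosed rats and -2.82, -3.04 and -2.72 in control rats, with a difference of 0.19 (SE 0.10, limma adjusted p = 0.536), and of 0.10 without control rat 2.

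Gstm3, a further mu gene, was measured only in dosed rats. Its brighter probe was well above background on all 3 dosed arrays and on 0 of 3 control arrays. The log2 level was -3.61, -4.23 and -4.70 in dosed rats, against -5.78, -5.44 and -5.47 in control rats, where the readings are not well above background. Set against the lowest signal well above background on each control array, or its own reading where higher, Gstm3 was 2.01-fold higher in dosed rats. That floor comes from other probes, so 2.01 is not a firm lower bound for this probe. The limma adjusted p was 0.251, with a log2 difference of the readings of 1.38 (SE 0.28).

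The second Gstm3 probe was well above background on 1 dosed array and on 0 control arrays, and so was not tested. Its readings were -5.34, -4.64 and -4.25 in dosed rats, against -5.83, -5.47 and -6.00 in control rats. Dosed rat 1 was the highest dosed rat by the first probe and the lowest by the second. Under normexp, which adds 50 to each signal and so compresses dim probes, the first probe differed by 0.33.

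Gstp1, the pi class gene, has 3 probes, all with a positive difference, of which the brightest overlapped between groups and the other two did not. The brightest read 5.95, 6.57 and 6.48 in dosed rats, against 5.70, 5.95 and 6.01 in control rats. Dosed rats 2 and 3 lay above all control rats and dosed rat 1 lay among them. The log2 difference was 0.45 (SE 0.19, 95% interval -0.003 to 0.905, limma adjusted p = 0.449).

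The other Gstp1 probes gave 0.69 (SE 0.20) and 0.68 (SE 0.20), at limma adjusted p of 0.360 and 0.361 when each probe was fitted by itself. By these probes the groups did not overlap, as in 8 of all 16 tested member probes, where 7.58% of probes had every dosed rat higher. Those 8 belong to Gsta1, Gsta3, Gstm2, Gstm3 and Gstp1, and the Gstm3 probe was tested only through its dosed arrays. Probes of the same gene read the same rats and are not independent. The first of the other Gstp1 probes read 3.72, 4.35 and 4.27 in dosed rats, against 3.20, 3.47 and 3.58 in control rats. Gstp3, a neighbouring pi class gene that is not among the members, had a value of 0.58 (SE 0.29), and there dosed rat 1 was the highest. With each probe by itself, 0 of 16 tested member probes passed in limma over 37274 probes, where 0.0268% passed. At an unadjusted p under 0.05 there were 7, where 11.3% of probes passed. Those 7 were probes of Gsta3, Gstm3 and Gstp1 alone, so they do not count as separate results. The count of 7 was 9 without dosed rat 1 and 3 without dosed rat 2 or without dosed rat 3. It was 2, 5 and 4 without control rats 1, 2 and 3 in turn. Over all probes the count was 4201 with all rats, and 3383, 4329 and 3185 without dosed rats 1 to 3. Without control rats 1 to 3 it was 3480, 2663 and 4326. The probes tested in these fits numbered 37274 to 39650.

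**Figure D3:**
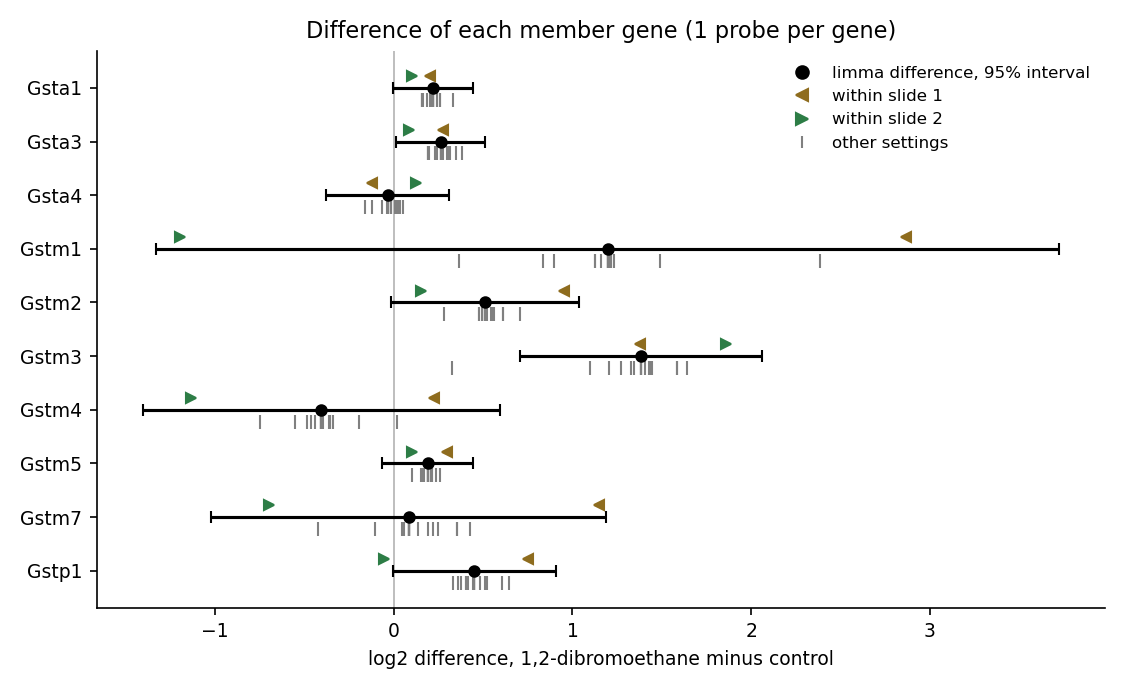
The log2 difference, dibromoethane minus control, is plotted for the 1 probe that stands for each gene, with its 95% limma interval, the value within each slide that held both groups (triangles) and the values under the other settings (ticks). The intervals of Gstm1, Gstm4 and Gstm7 are the widest, and their triangles fall on opposite sides of 0. All marks of Gstm3 are differences from control readings not well above background.

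The differences were also taken within slides. Slide 1 held dosed rat 2 with control rats 1 and 2, slide 2 held dosed rat 1 with control rat 3, and dosed rat 3 was alone on slide 3. The 4 members without overlap could not differ in sign between slides 1 and 2. Of the others, Gstm5 gave 0.30 and 0.10, and 5 had differences of opposite sign. The share of all features with opposite signs was not counted, so this describes these genes only. For Gstm1 the difference was 2.86 within slide 1 and -1.20 within slide 2, for Gstm4 it was 0.23 and -1.13, and for Gstm7 it was 1.15 and -0.70. Gstp1 gave 0.75 and -0.05, and Gsta4 -0.12 and 0.12.

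By its other 2 probes Gstp1 gave 1.01 and 0.13, and 1.03 and 0.11. For a gene without overlap the sign within a slide is fixed by the lack of overlap, so only the sizes are given, which were 0.20 and 0.10 for Gsta1, 0.27 and 0.08 for Gsta3, and 0.95 and 0.15 for Gstm2. Gstm3, with no control array well above background, has no such size. Since slide 2 compares 1 dosed with 1 control rat, slide and animal cannot be told apart there. With slide as a fixed block the difference was 0.36 for Gstm7, against 0.08 without the block. It was 0.16 for Gsta1, 0.19 for Gsta3, 0.61 for Gstm2, 1.12 for Gstm1 and 0.40 for Gstp1.

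**Figure D4:**
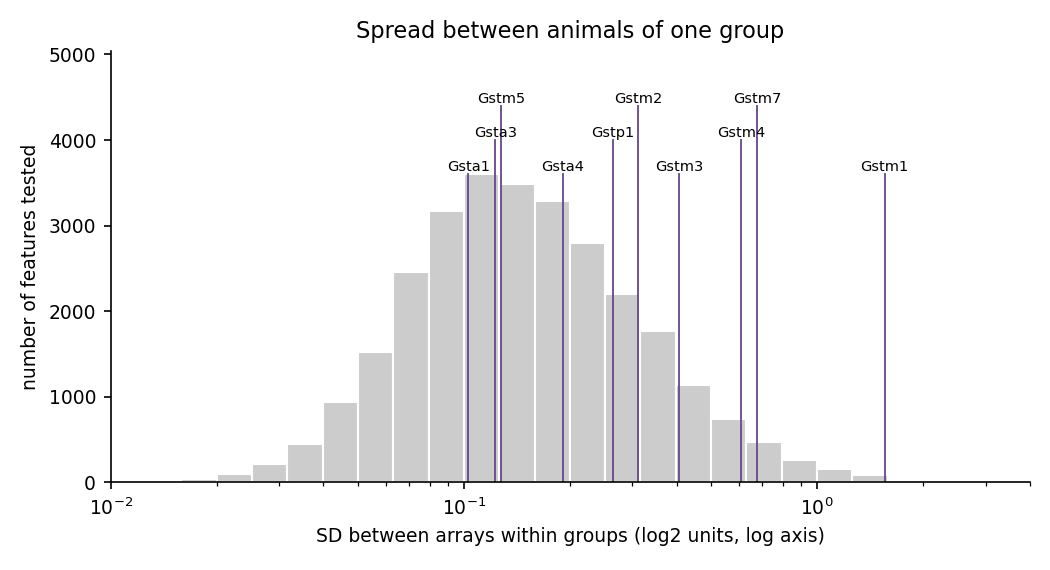
The histogram shows the SD between arrays within groups for the 28961 features tested (log axis, log2 units), and lines mark the 10 members. Gstm1 stands at 1.55, Gstm7 at 0.68 and Gstm4 at 0.61, against a median of 0.14 over all features.

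Related genes were read from lists of the pathway, and in limma 0 genes of any of these lists passed. At an unadjusted p under 0.05, 4.53% of all features were higher and 6.64% lower. Other alpha, mu and pi genes had 2 of 5 tested members with a positive value and a median of -0.01, with 0 at an unadjusted p under 0.05. Transferases of other classes had 8 of 13 positive and a median of 0.09, with 3 higher and 1 lower at an unadjusted p under 0.05. Among them, the theta class gene Gstt1 had a value of 0.55 (SE 0.16) and the microsomal Mgst2 one of 0.68 (SE 0.23). Both had dosed rats above all control rats. The genes named here from the lists of other transferases, glutathione supply and breakdown, mercapturate enzymes, transporters and NRF2 targets had limma adjusted p of 0.222 to 0.547.

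Genes of glutathione supply and breakdown, read as 1 list, had 3 of 9 positive and a median of -0.06. At an unadjusted p under 0.05, 0 were higher and 1 lower. Gclc, the catalytic subunit of the enzyme that limits glutathione synthesis, read 5.02, 5.67 and 4.11 in dosed rats, against 5.69, 6.06 and 5.70 in control rats, a difference of -0.88 (SE 0.39, limma adjusted p = 0.465). Its groups did not overlap, with the dosed rats lower. Gclm, the partner subunit, was well above background on 2 dosed arrays and 1 control array and was not tested. Chac2, which degrades glutathione, was the 1 lower gene, with a value of -0.21 (SE 0.07). The count and median thus do not speak for supply alone.

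Mercapturate enzymes had 10 of 16 positive, a median of 0.04, and 1 higher and 0 lower at an unadjusted p under 0.05. Acy1, an aminoacylase, had a value of 0.19 (SE 0.06) and Cbs, which makes a cysteine precursor, also 0.19 (SE 0.08). Conjugate transporters had 4 of 10 positive and a median of -0.06, with 0 higher and 1 lower. Slc22a6, a basolateral organic anion transporter, had a value of -0.28 (SE 0.07) and Abcc3, an export pump, one of -0.23 (SE 0.10). NRF2 targets had 14 of 24 positive, a median of 0.02, and 4 higher and 0 lower. Values were 0.59 (SE 0.09) for the epoxide hydrolase Ephx1, 1.59 (SE 0.27) for haem oxygenase Hmox1 and 0.46 (SE 0.26) for the quinone reductase Nqo1.

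Markers of other tissues and cell types were read beside these genes. Of 24 tested transcripts abundant in liver, a tissue that also holds much alpha and mu transferase, 22 had a positive value, with a median of 1.17. At an unadjusted p under 0.05, 7 were higher, where 4.53% of all features were, and 0 lower, where 6.64% were. The summed signal of these transcripts, relative to each array's 75th percentile, was 115 to 190 in dosed rats and 104 to 117.6 in control rats. Cyp2e1, a P450 enzyme of that list singled out after its values were seen, had a value of 0.12 (SE 0.14), and without it the sum was 43.9 to 104.6 in dosed rats and 27.8 to 45.8 in control rats. Alb, albumin, read 3.82, 2.11 and 1.94 in dosed rats, against -1.16, 1.95 and 1.50 in control rats.

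Alb was thus highest in dosed rat 1. By the probe that stood for each gene, that rat was the lowest of the 6 rats in Gstm1, Gstm4 and Gstm7. It was the highest in Gsta4, Gstm3 and Gstm5, and neither in the other members. Alb was lowest in control rat 1, as were Gsta1, Gsta3, Gstp1 and Gstm3, the last not well above background there. The part of Alb in the members' values was not tested. Proximal tubule markers had 16 of 19 negative values and a median of -0.15. At an unadjusted p under 0.05, 0 were higher and 7 lower, where 6.64% of all features were lower. In 8 of these markers every dosed rat was lower, which held for 12.1% of features. The summed signal of these markers was 3011 to 3172 in dosed rats and 3209 to 3604 in control rats. Slc34a1, a defining transporter of that segment, was well above background on all 6 arrays, with a difference of -0.08 (SE 0.06). Blood cell markers had 7 of 9 negative values, a median of -0.39 and 4 lower at an unadjusted p under 0.05, beside the same 6.64%. Their summed signal was 498 to 659 in dosed rats and 734 to 822 in control rats. Macrophage markers had 7 of 10 negative values, a median of -0.19 and 3 lower, again beside 6.64%. Their summed signal was 29.9 to 37.5 in dosed rats and 40.7 to 42.6 in control rats. In limma 0 markers of these 4 lists passed, and their part in the transferase values was not tested. Lists for thick limb, distal and collecting duct, podocyte, endothelium, lymphocyte, perirenal fat, adrenal and inner medulla were also read. In these 0 passed, and medians ran from -0.31 to 0.02. At an unadjusted p under 0.05 thick limb had 2 of 8 lower and podocyte 1 of 7. Distal and collecting duct had 2 of 14 higher, inner medulla 2 of 6 and lymphocyte 1 of 9. Endothelium had 1 of 8 each way, and fat and adrenal had 0. Between 59.2% and 67.7% of probes per array were well above background, 0 were saturated, and precision is limited by having 3 arrays in each group.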

How the data were processed

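Single-colour Agilent arrays of design 045522 were read for 6 rats. Spot intensity in the deposited scanner output had its background subtracted in Agilent Feature Extraction 10.7.1.1, per the file headers. A deposited value table for all arrays, also linear intensity, matched the processed signal over the 75th percentile (lowest r = 1.000 on the log2 scale), with column medians of 0.105 to 0.110 in dosed and 0.101 to 0.112 in control rats. Of 62976 spots, 1439 control spots and 84 spike-in probes were left out. Accessions without versions were matched to RefSeq names of assembly GRCr8, which differs from the grid's build rn4; 28206 probes (45.9%) received a symbol.

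The log2 signal minus the array's 75th percentile was tested by limma's lmFit and eBayes (version 3.58.1, in R 4.3.3), two-sided, without covariates, with Benjamini-Hochberg adjustment over all features and a threshold of 0.05. Spots with outlier flags were set to missing; no member spot had one. The fit was tested on simulated data. Alternatives were quantile normalization, median centring, normexp (offset 50, on median spot signals), other filters, the mean of a gene's probes, slide, scan day or replicate number as blocks, trend with robust, the series table and leaving out each array.

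Members and lists were chosen with earlier results of these data known. All members are named; from each other list up to 2 genes with the smallest p, with Nqo1, Gclc, Gclm, Alb and Slc34a1 always.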

Additional observations from a re-analysis of the deposited data

How the results depend on the processing

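Under 19 alternatives 0 member genes passed in limma, and under 18 of them 0 member probes, the mean of a gene's probes having no probe fit. At an unadjusted p under 0.05 there were 1 to 5 member genes and 1 to 9 member probes. Over all features that count also moved. It was 2076 of 29613 without control rat 2 and 4051 of 28961 with slide as a random block. Over all probes it was 2663 of 38061 and 5196 of 37274 under the same settings. The smallest limma adjusted p of a member gene was 0.0872, for Gstm3 with the mean of its probes. That mean takes in the Gstm3 probe that was not tested by itself. For both Gstm3 probes no control array was well above background. The median difference of the member genes was 0.20 to 0.37 with each array left out. Of 189 single-gene differences under alternatives, 9 changed sign. Gsta4 was 0.050 with quantile normalization, 0.029 with normexp and -0.16 to 0.035 with each array left out, Gstm4 -0.75 to 0.018, and Gstm7 -0.42 to 0.42. The filter on all 6 arrays left out Gstm3.

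Over all features, 9 passed as reported. The count was 5 with median centring, 5 with normexp, 2 with no filter, 2 with scan day as a fixed block and 17 with trend and robust. Slide as a fixed block gave 0 (3511 features at an unadjusted p under 0.05) and only slides with both groups 0 (3528), both with 2 residual degrees of freedom. Both leave dosed rat 3 out of the difference, so they are nearly the same fit. The count was 1 to 10 with each array left out. The cause of these changes in count was not tested. The replicate block gave 0 features (3462 at an unadjusted p under 0.05). Deviations of same-numbered rats from their group means correlated at r = -0.19, 0.26 and 0.16 for numbers 1 to 3. Between rats of unlike number r was -0.32 to 0.20. Dosed rat 2 and control rat 2 also shared slide 1, so these values do not settle whether rats were paired. Probes near background, as for Gstm3, limit what the arrays can show.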
